A study of Mus musculus with 23 samples.

Results

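The 9 genes followed here are genes of megakaryocytes and platelets, chosen by their names in the expression table and followed tumor by tumor. They are Pf4, Ppbp, Itga2b, Gp1ba, Gp5, Gp6, Gp9, Treml1 and Vwf, and all 9 were found among the 24475 genes of the table. RNA sequencing covered 23 mouse libraries, 1 per sample. The 6 normal thymus libraries came from C57BL/6 mice with no disease. The 14 WT T-ALL and 3 Notch3 KO T-ALL libraries came from spleens of BALB/c hosts without Rag2 and Il2rg (Rag2-/-Il2rg-/-), each with T-cell acute lymphoblastic leukemia (T-ALL) that followed a graft of newborn donor thymus beneath the capsule of the kidney. The donor was wild type, of a congenic C57BL/6 line, or lacked Notch3 through a β-galactosidase insertion in its first coding exon. All 17 T-ALL libraries therefore share tissue, host and disease, and thymus differs from them in all of these. Ages at collection are not given in the sources used here, no cell sort is named for the spleens, and no normal spleen was analysed here.

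Platelets are released by megakaryocytes, large cells that in mice live in bone marrow and also in the spleen. Platelets have no nucleus and carry RNA from the megakaryocyte, so both can give reads of these genes in a spleen. On the surface, the glycoprotein Ib-IX-V complex binds von Willebrand factor, integrin αIIbβ3 binds fibrinogen and glycoprotein VI binds collagen, while chemokines and adhesion proteins are stored in the α-granules.

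The promoters of the members are shown first, as a description of the genes. RefSeq (GRCm38.p6) gave the 250 bases before the transcript start for 8 members, all but Vwf. Both strands were searched for words bound by 3 families of factors known in megakaryocytes: GATA, ETS and RUNX. The GATA words were AGATAA and AGATAG together with TGATAA and TGATAG. The ETS words were AGGAAG and CGGAAG, and the RUNX words were TGTGGT and TGCGGT. No word of one family overlapped a word of another in these windows. Pf4 and Ppbp are shown as the members with the highest levels in T-ALL, and Gp1ba and Gp5 as those that hold both GATA and ETS words. The windows are chr5:90772185-90772434 for Pf4, chr5:90768268-90768517 for Ppbp and chr11:70638872-70639121 for Gp1ba, on the plus strand, and chr16:30310782-30311031 for Gp5, on the minus strand. Capitals mark the words on either strand, and each sequence runs 5′ to 3′ on the strand of its gene.
Pf4: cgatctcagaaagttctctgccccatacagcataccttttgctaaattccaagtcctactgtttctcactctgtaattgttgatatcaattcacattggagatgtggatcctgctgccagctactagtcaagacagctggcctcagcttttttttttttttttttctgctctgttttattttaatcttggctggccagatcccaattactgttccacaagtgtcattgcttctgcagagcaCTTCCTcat
Ppbp: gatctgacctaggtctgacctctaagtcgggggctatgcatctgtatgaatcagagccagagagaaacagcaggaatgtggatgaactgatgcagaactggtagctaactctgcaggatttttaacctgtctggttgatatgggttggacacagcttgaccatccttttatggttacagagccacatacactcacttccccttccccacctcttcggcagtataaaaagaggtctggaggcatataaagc
Gp1ba: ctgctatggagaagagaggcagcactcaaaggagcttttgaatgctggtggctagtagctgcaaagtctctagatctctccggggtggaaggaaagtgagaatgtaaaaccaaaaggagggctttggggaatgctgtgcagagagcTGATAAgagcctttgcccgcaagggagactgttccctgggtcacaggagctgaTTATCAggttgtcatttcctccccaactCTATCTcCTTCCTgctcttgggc
Gp5: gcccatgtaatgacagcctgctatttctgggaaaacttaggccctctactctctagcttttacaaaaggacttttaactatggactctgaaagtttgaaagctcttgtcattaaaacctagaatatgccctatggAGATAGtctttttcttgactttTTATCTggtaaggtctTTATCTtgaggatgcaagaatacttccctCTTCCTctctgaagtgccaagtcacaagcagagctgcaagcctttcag
A GATA word was present in 3 of the 8 promoters (Gp1ba, Gp5 and Gp6), against 26.5% of all 32851 promoters of the same length. An ETS word was present in 5 (Pf4, Gp1ba, Gp5, Gp9 and Itga2b), against 39.2%. A RUNX word was present in 1 (Gp9), against 18.6%, and GATA with ETS in 2, against 9.21%. Gp1ba and Gp5 each held 3 GATA words and 1 ETS word. In Gp1ba, 1 GATA word and the ETS word lay next to each other, at 18 to 23 and 11 to 16 bases before the start. The promoters of Ppbp and Treml1 held none of these words. These are counts of letters in a window, and no binding was measured.

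Levels are log2(scaled RPKM + 1) as deposited, where RPKM is the read count per transcript length and library size, scaled so that the 75th percentile of every library is 10. The offset of 1 shrinks differences between low values. For 7 members the low values were whole multiples of the value of 1 read (within a tolerance of 0.1 read, with a largest gap of 0.0068), so reads could be counted back. Itga2b and Treml1 gave no such step. The value of 1 read relative to that in thymus 1 had a range of 1.0 to 2.26 over the thymus libraries. It was between 0.617 and 3.58 over WT T-ALL and between 1.18 and 1.40 over Notch3 KO T-ALL, so depth varied within groups. Mitochondrial genes held 7.30% to 24.2%, 10.3% to 45.9% and 12.03% to 20.7% of the summed scaled RPKM, and hemoglobin genes 0.0093% to 0.117%, 0.0875% to 5.92% and 4.05% to 15.5%. Notch3 itself ran from 2.62 to 4.29, 3.17 to 5.78 and 2.59 to 3.74 (log2), and a value for the whole gene does not check an insertion in its first coding exon.

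All 9 members had a low level in thymus and a higher mean in both groups of leukemic spleens, and were highest in the Notch3 KO libraries and in WT T-ALL 108. With every gene of the table fitted by limma, 6 of the 9 were higher in WT T-ALL than in thymus at an adjusted p under 0.05, where 13.5% of all 24475 genes were higher (25.1% called in either direction). That count was 3 without thymus 1 and 9 without WT T-ALL 108. For Notch3 KO T-ALL all 9 of 9 were above thymus, where 11.1% of all genes were (19.1% in either direction). Between the T-ALL groups 0 of 9 were called in that fit, where 0.155% of all genes were, and exact permutation tests gave 8 of them a higher mean at an unadjusted p under 0.05, where 5.29% of all genes had one. A filter (1 or more scaled RPKM in 3 or more of the libraries fitted) kept 8 members and removed Gp6, and adjusted p-values below are those of limma with this filter unless stated. The members passed it through the T-ALL libraries, where they are high, and Gp1ba and Vwf only with the Notch3 KO libraries (1 and 2 WT libraries at 1 or more), so the counts in the fit of all 24475 genes do not depend on it, while those under the filter do. Under it 51.6% of 11919 genes were called for WT T-ALL against thymus (29.3% higher, 22.3% lower) and 37.5% for Notch3 KO T-ALL against thymus (21.2% higher, 16.3% lower). Rescaled without mitochondrial and hemoglobin genes, 28.5% and 25.7% of the called genes were the higher ones, in place of 56.8% and 56.5%, and the median of all genes was -0.28 and -0.32. Of 11677 genes, 0.617% were called between the T-ALL groups (0.591% higher in Notch3 KO). The median difference of the 9 members was 0.85, 2.75 and 1.64 in the 3 comparisons, against 0 for all genes. The spleens are bulk tissue, in which more cells of a type and more RNA per cell cannot be told apart, and tissue, strain and disease cannot be told apart in the comparisons with thymus.

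**Figure D1:**
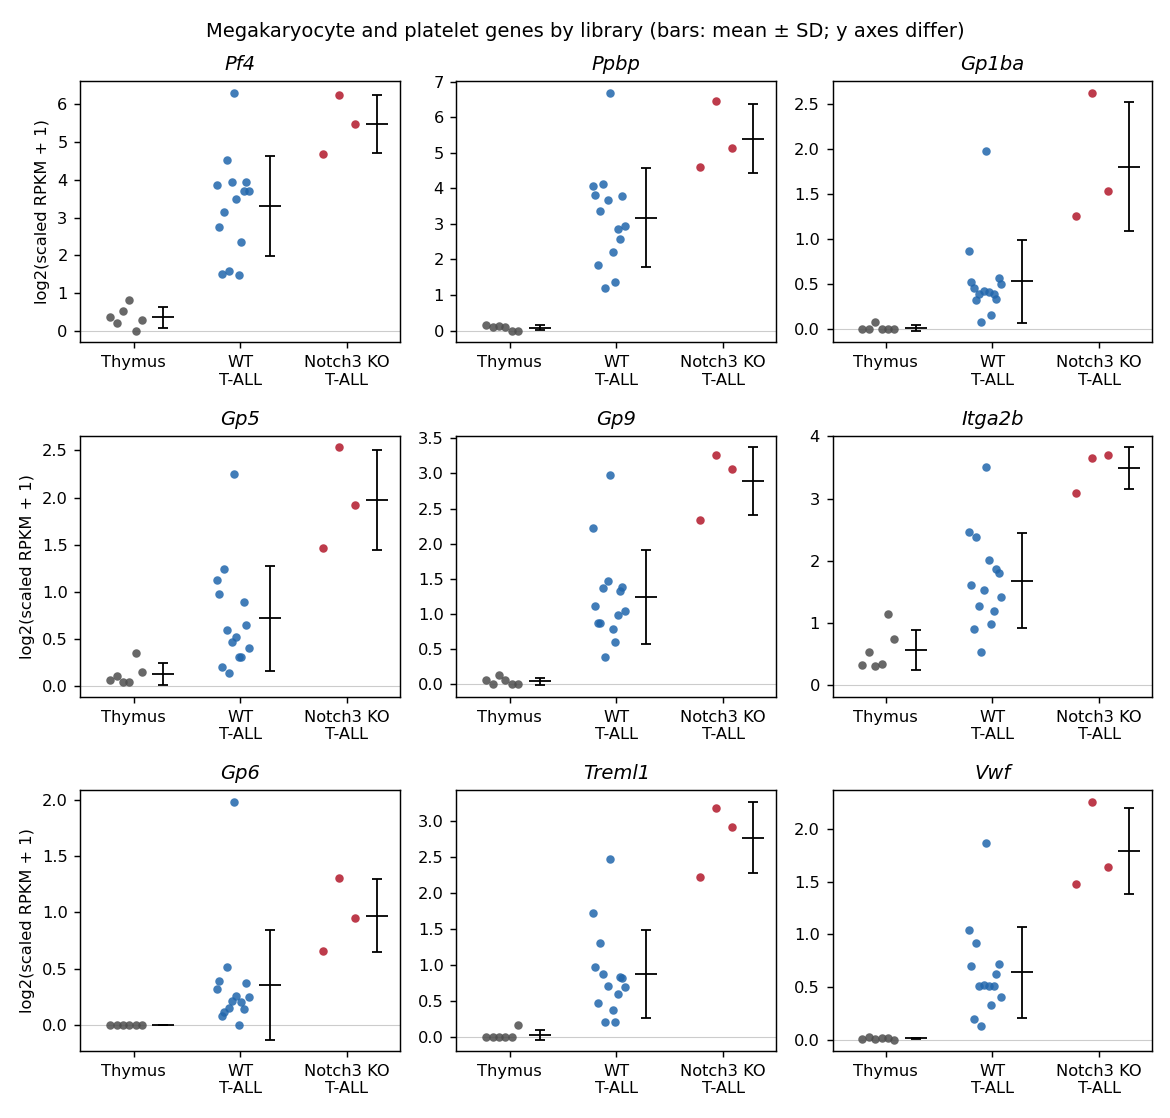
Level of each of the 9 genes (log2(scaled RPKM + 1), y axes differ) in every library of 6 thymus, 14 WT T-ALL and 3 Notch3 KO T-ALL, with mean ± SD as black bars. Thymus has the lowest mean in every panel, overlapping WT T-ALL for Itga2b, Gp5, Gp1ba and Gp6, and 1 blue point, WT T-ALL 108, stands among or above the red Notch3 KO points.

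The α-granule chemokines had the highest levels of the members in both T-ALL groups. Pf4 (platelet factor 4, gene 56744, chromosome 5, 90772435 to 90773383 on GRCm38) ran in log2 from 0 to 0.80 in thymus (median 0.31), from 1.47 to 6.31 in WT T-ALL (median 3.59), and was 4.70, 6.25 and 5.48 in Notch3 KO 1, 2 and 3. All 14 WT and all 3 Notch3 KO libraries were above all 6 thymus libraries. Counted back, Pf4 had 28 reads in the 6 thymus libraries together, 2793 in WT T-ALL and 2017 in Notch3 KO T-ALL. The mean scaled RPKM was 0.303 ± 0.262 (SD, n = 6) in thymus and 14.3 ± 19.3 (SD, n = 14) in WT T-ALL, a ratio of 47.3, which was 31.1 (WT mean 9.40) without WT T-ALL 108. In Notch3 KO T-ALL it was 47.9 ± 25.4 (SD, n = 3), or 158 times thymus. The log2 difference was 2.95 (SE 0.50, limma adjusted p = 5.21e-05) for WT T-ALL and 5.12 (SE 0.73, limma adjusted p = 1.62e-05) for Notch3 KO T-ALL.

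Ppbp (pro-platelet basic protein, gene 57349, chromosome 5, 90768518 to 90770063), whose product is cut to a chemokine that draws neutrophils, ended 2372 bases before Pf4 on the same strand. It ran in log2 from 0 to 0.17 in thymus (median 0.10), from 1.20 to 6.69 in WT T-ALL (median 3.15), and was 4.59, 6.47 and 5.14 in Notch3 KO 1, 2 and 3. No T-ALL library overlapped thymus. There were 11 reads in thymus, 5010 in WT T-ALL, of which 2396 were in 1 library, and 3765 in Notch3 KO T-ALL. The mean scaled RPKM rose from 0.0619 ± 0.0518 (SD, n = 6) to 14.9 ± 25.6 (SD, n = 14) and 48.3 ± 34.4 (SD, n = 3). These means were 8.15 without WT T-ALL 108 and 28.6 without Notch3 KO 2. The log2 difference from thymus was 3.09 (SE 0.53, limma adjusted p = 5.64e-05) in WT T-ALL and 5.31 (SE 0.77, limma adjusted p = 2.00e-05) in Notch3 KO T-ALL. The other chemokine genes on either side of the pair, chosen after the values were seen, did not share these levels. Cxcl5 had a mean log2 of 0, 0.09 and 0.21 in the 3 groups and Cxcl3 of 0, 0.03 and 0.02, and neither passed the test in any comparison (limma over all genes, adjusted p from 0.0861 to 1). Of the 16 other genes that flank the members, these 2 included, 3 were called higher and 3 lower in WT T-ALL than in thymus. In Notch3 KO T-ALL 3 were higher and 2 lower, and Rab43 beside Gp9 and Cd9 beside Vwf were higher in both. Of all genes, 13.5% and 11.1% were higher in the same fits.

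The glycoprotein Ib-IX-V complex is the receptor that tethers platelets to von Willebrand factor. Of the 3 subunits followed, Gp9 had the highest mean in both T-ALL groups, and Gp5 in thymus. Gp9 (gene 54368, chromosome 6, 87778072 to 87779768) ran in log2 from 0 to 0.13 in thymus (median 0.03), from 0.39 to 2.97 in WT T-ALL (median 1.08), and was 2.34, 3.26 and 3.06 in Notch3 KO 1, 2 and 3. It had 4 reads in the 6 thymus libraries, 433 in WT T-ALL and 384 in Notch3 KO T-ALL, and the groups of T-ALL did not overlap thymus. The log2 difference from thymus was 1.20 (SE 0.26, limma adjusted p = 0.00064) in WT T-ALL and 2.85 (SE 0.38, limma adjusted p = 7.05e-06) in Notch3 KO T-ALL.

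Gp1ba (gene 14723, chromosome 11, 70639122 to 70642036), the subunit that binds von Willebrand factor, was at 0 in 5 thymus libraries and at 0.08 in thymus 3 (4 reads). In log2 it ran from 0.08 to 1.98 in WT T-ALL (median 0.42) and was 1.26, 2.63 and 1.53 in Notch3 KO 1, 2 and 3. Of the WT libraries, 13 were above all thymus libraries. The difference from thymus was 0.52 (SE 0.21, limma adjusted p = 0.0442) in WT T-ALL and 1.79 (SE 0.31, limma adjusted p = 0.000102) in Notch3 KO T-ALL, and the second stood at an adjusted p of 0.000288 by limma without the filter. The first of these calls was lost without the filter (limma adjusted p = 0.0794) and when any 1 of the 6 thymus libraries or WT T-ALL 3, 4, 128 or 202 was left out, with a difference between 0.40 and 0.55 and an adjusted p of at most 0.0723 over all libraries left out in turn.

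Gp5 (gene 14729, chromosome 16, 30307685 to 30310779), the subunit that thrombin cuts, was the only member of the complex with reads in every thymus library, 23 in all. It ran in log2 from 0.05 to 0.35 in thymus (median 0.08), from 0.14 to 2.25 in WT T-ALL (median 0.56), and was 1.47, 2.53 and 1.92 in Notch3 KO 1, 2 and 3. Of the WT libraries, 10 were above all thymus libraries. The difference from thymus was 0.59 (SE 0.23, limma adjusted p = 0.0352) in WT T-ALL and 1.85 (SE 0.34, limma adjusted p = 0.000193) in Notch3 KO T-ALL. The WT call was lost without the filter (limma adjusted p = 0.0684) and when thymus 1, 2, 3, 4 or 6 or WT T-ALL 3 was left out, with a difference between 0.48 and 0.64 and an adjusted p of at most 0.0646. Rescaling without mitochondrial and hemoglobin genes also ended both WT calls (limma adjusted p = 0.0601 for Gp1ba and 0.0645 for Gp5), and quantile normalization that of Gp5 (limma adjusted p = 0.0654). The WT calls of Gp1ba and Gp5 are therefore near the threshold, while the Notch3 KO calls kept an adjusted p of at most 0.00286 whichever library was left out.

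The other receptors were Itga2b, Gp6 and Treml1. Itga2b (gene 16399, chromosome 11, 102453297 to 102470122), which encodes the αIIb chain of the fibrinogen receptor and is also active in early blood progenitors, had the highest thymus level of the members. It ran in log2 from 0.31 to 1.14 in thymus (median 0.44), from 0.53 to 3.51 in WT T-ALL (median 1.57), and was 3.10, 3.66 and 3.70 in Notch3 KO 1, 2 and 3. Of the WT libraries, 11 were above all thymus libraries, and the other 3 overlapped them. The ratio of mean scaled RPKM to thymus was 5.31 for WT T-ALL and 20.3 for Notch3 KO T-ALL, the smallest of the 8 members with a value in thymus. The log2 difference was 1.12 (SE 0.30, limma adjusted p = 0.00357) and 2.92 (SE 0.43, limma adjusted p = 2.29e-05). The progenitor list fixed for this work (Kit, Cd34, Flt3, Meis1 and Hoxa9) had a summed scaled RPKM of 2.20 to 4.40 in thymus. That sum was 1.83 to 24.1 across WT T-ALL and 4.17 to 8.07 across Notch3 KO T-ALL, and none of its 3 genes past the filter was called in any comparison, while without the filter Meis1 was higher in WT T-ALL than in thymus by 0.31 (limma adjusted p = 0.0386).

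Treml1 (TREM-like transcript 1, a receptor of α-granules, gene 71326, chromosome 17, 48359916 to 48367176) was at 0 in 5 thymus libraries and at 0.16 in thymus 6. In log2 it ran from 0.21 to 2.48 in WT T-ALL (median 0.76) and was 2.22, 3.18 and 2.92 in Notch3 KO 1, 2 and 3. All T-ALL libraries lay above all thymus libraries. The log2 difference from thymus was 0.85 (SE 0.25, limma adjusted p = 0.0067) in WT T-ALL and 2.75 (SE 0.36, limma adjusted p = 5.00e-06) in Notch3 KO T-ALL.

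Gp6 (glycoprotein VI, the collagen receptor, gene 243816, chromosome 7, 4363965 to 4397744) was the lowest member and had 0 reads in all 6 thymus libraries. A count of 0 allows up to 3 reads over the group, or 0.0188 scaled RPKM, which covers counting error only. In log2 it ran from 0 to 1.98 in WT T-ALL (median 0.23, with 1 library at 0) and was 0.66, 1.31 and 0.95 in Notch3 KO 1, 2 and 3. Its 137 WT reads included 74 in WT T-ALL 108, and the 3 Notch3 KO libraries had 17, 42 and 23 reads. Against that floor the mean scaled RPKM was at least 20.1-fold higher in WT T-ALL (9.53-fold without WT T-ALL 108) and at least 52.9-fold higher in Notch3 KO T-ALL. In the fit of all genes the log2 difference was 0.36 (SE 0.20, limma adjusted p = 0.221) for WT T-ALL and 0.97 (SE 0.28, limma adjusted p = 0.0184) for Notch3 KO T-ALL. Without WT T-ALL 108 the first was 0.23 (limma adjusted p = 0.028). The second was lost without thymus 1, Notch3 KO 2 or Notch3 KO 3, with differences between 0.80 and 0.98 (limma adjusted p = 0.0604, 0.101 and 0.0614).

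Vwf (von Willebrand factor, gene 22371, chromosome 6, 125546774 to 125686679), the adhesion protein that is made by endothelial cells as well as by megakaryocytes, was near 0 in thymus, at 0 to 0.02 in log2, with 9 reads in all. It ran from 0.13 to 1.87 in WT T-ALL (median 0.52) and was 1.48, 2.26 and 1.64 in Notch3 KO 1, 2 and 3. There were 1663 reads in WT T-ALL and 1635 in Notch3 KO T-ALL, and no T-ALL library overlapped thymus. The log2 difference from thymus was 0.63 (SE 0.19, limma adjusted p = 0.00724) in WT T-ALL and 1.78 (SE 0.27, limma adjusted p = 2.89e-05) in Notch3 KO T-ALL, and without the filter the adjusted p was 0.0119 and 6.96e-05 by limma. Since Vwf marks both cell types, endothelial genes are given beside it. The 10 genes of the endothelial list had a summed scaled RPKM of 34.9 to 41.3 in thymus, 22.1 to 48.8 across WT T-ALL and 37.3 to 44.4 across Notch3 KO T-ALL. Pecam1, which many blood cells also express, made up most of that sum (mean scaled RPKM 34.6, 27.5 and 24.7). The mean log2 of the 10 genes was 0.74 to 0.83, 0.67 to 1.504 and 1.39 to 1.61, so by that measure the Notch3 KO libraries were all above thymus and WT T-ALL overlapped both. Tek, Emcn, Robo4 and Cldn5 were under 0.1 in every thymus library. Of the 6 endothelial genes past the filter, 4 were higher and 1 (Pecam1) lower in WT T-ALL than in thymus, and 4 were higher in Notch3 KO T-ALL. Without the filter 7 of the 10 were higher in both, and their part in the difference of Vwf was not tested.

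**Figure D2:**
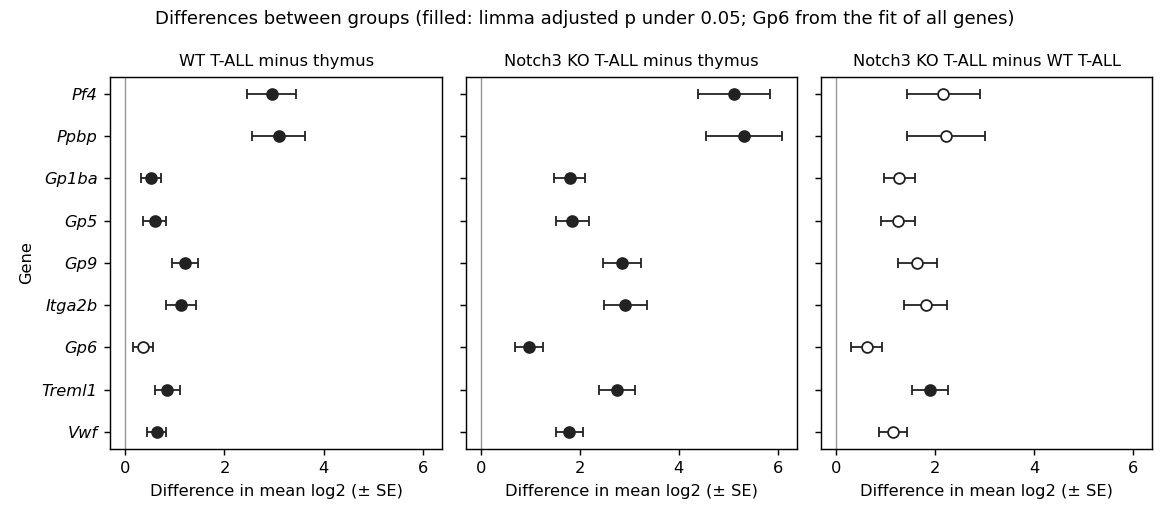
Difference in mean log2(scaled RPKM + 1) with its standard error for each gene in 3 comparisons. Filled points have a limma adjusted p under 0.05. All 27 differences are above 0, and in the comparison of the T-ALL groups Treml1 alone is filled.

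Between the T-ALL groups, all 9 members had a higher mean in Notch3 KO T-ALL, and 1 of the 8 past the filter was called. Treml1 was higher by 1.90 on the log2 scale (SE 0.37, limma adjusted p = 0.018), or 5.92-fold in mean scaled RPKM (6.10 ± 2.25, n = 3, against 1.03 ± 1.16, n = 14, SD). Its call was lost without Notch3 KO 2 (1.69, limma adjusted p = 0.331) or Notch3 KO 3 (1.83, limma adjusted p = 0.229), and without the filter (limma adjusted p = 0.101). The other 7 members past the filter had differences from 1.15 (Vwf) to 2.22 (Ppbp) with adjusted p-values from 0.0638 (Itga2b) to 0.281 (Ppbp). Gp6 differed by 0.61 (SE 0.32, limma adjusted p = 1 over all genes). Exact two-sided permutation tests, which cannot go below 0.00147 with 3 against 14 libraries, gave an unadjusted p of 0.00294 for Treml1, Gp9 and Itga2b. The same exact test gave 0.00441 for Vwf, 0.00588 for Gp1ba and Gp5, 0.0191 for Pf4 and Ppbp, and 0.05 for Gp6.

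The number of these differences called changed with WT T-ALL 108, with each Notch3 KO library and with the filter. In each of the 9 genes the 3 Notch3 KO libraries and WT T-ALL 108 were the 4 highest of the 17 T-ALL libraries. The share of all genes with these 4 libraries highest was not computed, and the 9 genes are correlated with each other. WT T-ALL 108 was the highest of all for Pf4, Ppbp and Gp6, Notch3 KO 2 for Gp1ba, Gp5, Gp9, Treml1 and Vwf, and Notch3 KO 3 for Itga2b. Without WT T-ALL 108, 7 of the 8 members past the filter were called, with limma adjusted p-values from 0.00145 (Treml1) to 0.0447 (Ppbp), while 158 genes in all were called against 72 with it. Of those 8, Gp1ba, Gp5, Treml1 and Vwf then passed the filter only with the help of the Notch3 KO libraries, in which they are high (0 to 2 WT libraries at 1 or more scaled RPKM), and without a filter 1 of 9 was called. Pf4 then differed by 2.40 (limma adjusted p = 0.0552) and Gp6 by 0.74 (limma adjusted p = 0.077, all genes). The count was 2 without WT T-ALL 3 (with Gp9 at an adjusted p of 0.047 by limma), 3 without Notch3 KO 1, and 0 without Notch3 KO 2 or Notch3 KO 3. With 3 Notch3 KO spleens the comparison rests on each of them.

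**Figure D3:**
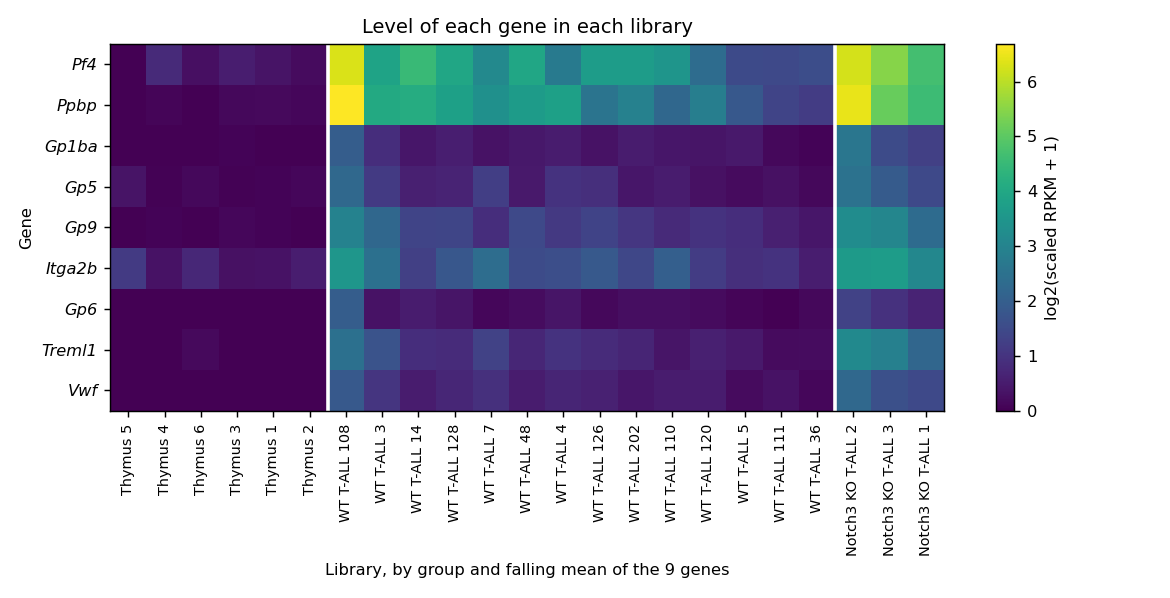
Level of each gene (rows, color as log2(scaled RPKM + 1)) in each of the 23 libraries (columns), set in groups and by falling mean of the 9 genes. In the WT T-ALL 108 and Notch3 KO columns Pf4 and Ppbp are brightest and the other genes are darker, and thymus is dark.

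Some tumors were high or low for nearly all members. The mean log2 of the 9 members ran from 0.11 to 0.17 in thymus. In WT T-ALL it went from 0.49 in WT T-ALL 36, 0.60 in 111 and 0.73 in 5 to 1.97 in WT T-ALL 3 and 3.34 in WT T-ALL 108. It was 2.42, 3.50 and 2.93 in Notch3 KO 1, 2 and 3. WT T-ALL 111 was among the 3 lowest T-ALL libraries for all 9 genes, WT T-ALL 36 for 8 and WT T-ALL 5 for 6. The remaining WT libraries changed places from gene to gene. WT T-ALL 7 had rank 5 of 17 for Gp5 but rank 15 for Gp1ba and Gp6, and WT T-ALL 14 had rank 5 for Pf4, Ppbp and Gp6 but rank 13 for Itga2b and Vwf. Gp6 had a median of 4.5 reads in WT T-ALL, so its ranks rest on few reads.

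Within a library the genes kept a similar order. By scaled RPKM, Pf4 or Ppbp was first in all 17 T-ALL libraries (Pf4 in 10, Ppbp in 7), with Itga2b in the third place in 16 and Gp6 last in 14. The ratio of Pf4 to Ppbp ran from 0.436 (WT T-ALL 4) to 2.79 (WT T-ALL 110) with a median of 1.12 in WT T-ALL, and lay between 0.859 and 1.28 in Notch3 KO T-ALL. Gp9 was 2.19 to 5.79 times Gp1ba in WT T-ALL and 1.66 to 3.88 times in Notch3 KO T-ALL. Gp5 was 0.184 (WT T-ALL 5) to 1.63 (WT T-ALL 7) times Gp9 in WT T-ALL, a wider range than the 0.380 to 0.558 of Notch3 KO T-ALL, in libraries where both genes have few reads. Gp6 relative to Gp9 was highest in WT T-ALL 108, at 0.430, against a WT median of 0.166 and 0.127 to 0.172 in Notch3 KO T-ALL.

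Over the 14 WT T-ALL libraries the 36 pairs of members had a Pearson r between 0.718 and 0.973 (median 0.847) and a Spearman rho between 0.468 and 0.943 (median 0.701). Among the 81 relations computed, all 36 pairs had a Benjamini-Hochberg adjusted permutation p under 0.05 for r, and 22 of them also for rho. The share for pairs of any genes in these libraries was not computed, so these counts have no background beside them. The highest was Gp5 with Vwf, at r = 0.973 (permutation p = 1e-05, the smallest 100000 resamples can give, adjusted 0.000162) and rho = 0.943 (permutation p = 1e-05, adjusted 0.000405). It was 0.914 without WT T-ALL 108 and WT T-ALL 3. WT T-ALL 108 carried much of the size. Without the 2 libraries farthest from the median the range of r was 0.331 to 0.914 (median 0.608), and without WT T-ALL 108 alone 0.259 to 0.926 (median 0.680). Gp6 with Vwf fell from r = 0.844 (permutation p = 0.00775, adjusted 0.0179, rho = 0.508 with adjusted permutation p = 0.141) to 0.331 without WT T-ALL 108 and WT T-ALL 3, so that relation rests on those libraries.

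The marker lists of other cells were set beside the members in the same 14 libraries, with 9 relations each. With the erythroid list r was 0.121 to 0.481 and none of the 9 had an adjusted permutation p under 0.05. With the endothelial list r was 0.441 to 0.604, 2 of 9 had such a p for r and 0 for rho, and the range was -0.416 to 0.138 without the 2 farthest libraries. Vwf with the endothelial list had r = 0.604 (permutation p = 0.0235, adjusted 0.0476) and rho = 0.279 (permutation p = 0.334, adjusted 0.464), and r = 0.060 without WT T-ALL 108 and WT T-ALL 36. With macrophage genes r was 0.397 to 0.694 (2 of 9 for r, 0 for rho), with neutrophil genes 0.312 to 0.653 (1 of 9 for both) and with basophil and mast cell genes 0.266 to 0.552 (0 of 9). These ranges rested in part on WT T-ALL 108. Without it r was -0.359 to 0.281 with the erythroid list, -0.118 to 0.335 with the endothelial, 0.102 to 0.594 with the macrophage, 0.019 to 0.564 with the neutrophil and -0.298 to 0.239 with the basophil and mast cell list.

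**Figure D4:**
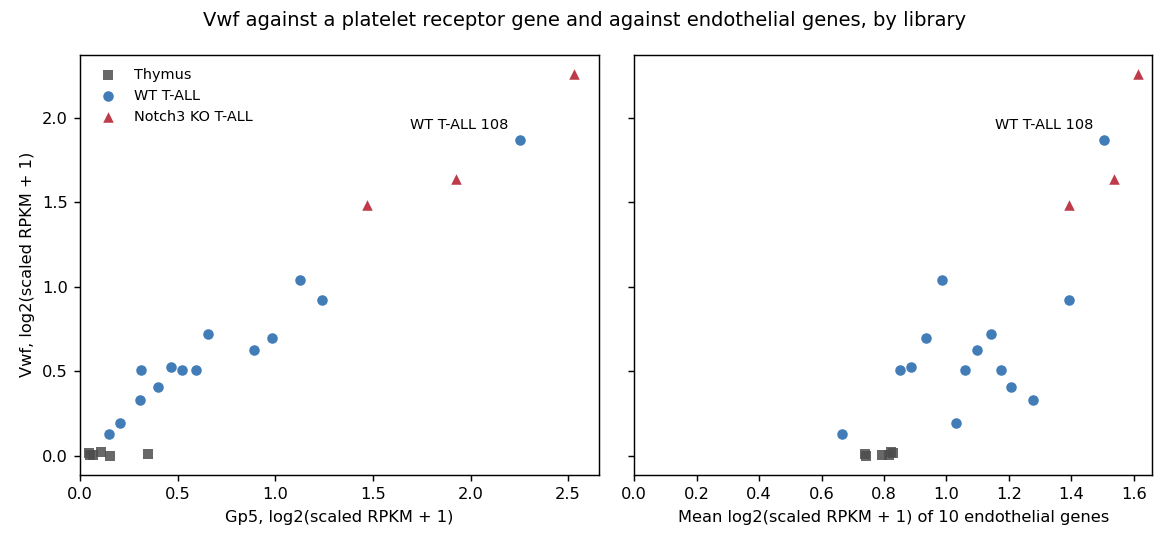
Vwf in each library (y axis, log2(scaled RPKM + 1)) against Gp5 on the left and against the mean of 10 endothelial genes on the right, with thymus as squares, WT T-ALL as circles and Notch3 KO T-ALL as triangles. In WT T-ALL r was 0.973 on the left and 0.604 on the right, and WT T-ALL 108 is the highest circle in both panels.

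Genes of other cell types also differed from thymus, not all in the direction of the members. The 10 erythroid genes had a summed scaled RPKM of 4.48 to 126 in thymus, 319 to 24759 across WT T-ALL and 10050 to 34838 across Notch3 KO T-ALL, and 9 and 10 of 10 were higher than in thymus (9 and 9 without the filter), with Klf1, Ermap and Rhag among those under 0.1 in every thymus library. With the mean of this list as a covariate, 0 members were called in any of the 3 comparisons (limma, adjusted p from 0.176 to 1 in the comparisons with thymus). The differences themselves changed unequally. Treml1 and Itga2b still differed by 1.66 and 1.51 between the T-ALL groups (1.90 and 1.81 without the covariate) and by 2.07 and 2.23 in Notch3 KO T-ALL against thymus (2.75 and 2.92), whereas Pf4 went from 2.17 to 0.97 and from 5.12 to 1.54 in the same comparisons, and Gp9 in WT T-ALL against thymus from 1.20 to 0.13. With the covariate, 1064 genes in all were called in WT T-ALL against thymus in place of 6150. Erythroid levels did not overlap between thymus and T-ALL, so the erythroid level and the tissue cannot be told apart there. The 9 macrophage genes summed to 9.60 to 63.3 in thymus, 27.1 to 425 across WT T-ALL and 310 to 451 across Notch3 KO T-ALL (8 and 9 of 9 higher than in thymus, 6 and 8 without the filter). The 8 neutrophil genes summed to 57.1 to 531, 637 to 84652 and 202 to 7584 (8 and 3 of 8 higher, 8 and 0 without the filter), and 6 basophil and mast cell genes to 2.11 to 8.41, 1.48 to 190 and 12.1 to 17.6 (2 and 0 of the 5 past the filter higher, 1 and 0 of 6 without it). The 6 T-cell genes summed to 3215 to 4191, 1068 to 2997 and 1685 to 1958 (3 and 2 lower, 2 and 2 without the filter), the 4 B-cell genes to 17.2 to 22.7, 0.503 to 5.80 and 0.638 to 1.53 (4 and 4 lower), and the 6 thymic epithelial genes to 3.59 to 5.91, 2.32 to 9.26 and 2.65 to 5.13. Of these 6, 1 (Ccl25) passed the filter and was not called, while without the filter 3 (Psmb11, Foxn1 and Krt8) were lower than in thymus in both T-ALL groups, with Foxn1 under 0.1 in all 3 groups. None of these lists had a called gene between the T-ALL groups, and their part in the members' differences was not tested apart from the covariate.

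A further 40 genes of the lineage were followed in 3 lists. Of the 10 megakaryocyte transcription factors, 8 passed the filter. In WT T-ALL 6 were higher and 1 lower than in thymus, and in Notch3 KO T-ALL 5 were higher and 1 lower, with medians of 1.57 and 2.73 against 0.08 and 0.08 for all genes tested. Tal1, needed for blood cell formation and for megakaryocytes and red cells, rose by 3.09 (SE 0.37, limma adjusted p = 4.83e-07) in WT T-ALL and 5.03 (SE 0.53, limma adjusted p = 2.82e-07) in Notch3 KO T-ALL. Gata1, the main GATA factor of both lineages, rose by 2.51 (SE 0.34, limma adjusted p = 2.49e-06) and 4.27 (SE 0.49, limma adjusted p = 8.94e-07). Tal1, Gata1, Nfe2, Gfi1b and Zfpm1 also act in red-cell precursors, whose genes moved in the same direction (above). The study reported Tal1 among the oncogenic transcription factors raised in individual T-ALL cases over normal thymus. Which cells gave the Tal1 reads was not tested. Fli1, an ETS factor of megakaryocytes that T cells also express, was lower by 0.56 (SE 0.18, limma adjusted p = 0.0117) in WT T-ALL and by 0.70 (SE 0.26, limma adjusted p = 0.0362) in Notch3 KO T-ALL, the second lost without the filter (limma adjusted p = 0.0678) and when thymus 3 or 6 or Notch3 KO 2 or 3 was left out. Runx1 differed by 0.13 (SE 0.15) and -0.14 (SE 0.22), with limma adjusted p-values of 0.472 and 0.629, and the first turned to -0.27 when rescaled without mitochondrial and hemoglobin genes. None of the 8 was called between the T-ALL groups with all libraries, and 2 were without WT T-ALL 108.

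Of the 14 receptor genes, 12 passed the filter, and 7 were higher and 1 lower than in thymus in each T-ALL group. Cd9, a tetraspanin also found on many other cells, rose by 1.87 (SE 0.37, limma adjusted p = 0.000248) in WT T-ALL, and Fcer1g, the signaling chain that partners Gp6 and also serves myeloid Fc receptors, by 1.40 (SE 0.54, limma adjusted p = 0.0331). In Notch3 KO T-ALL the leading receptors were Clec1b (CLEC-2, the podoplanin receptor), higher by 2.59 (SE 0.44, limma adjusted p = 9.25e-05), and Fcer1g, by 2.07 (SE 0.78, limma adjusted p = 0.04). Tbxa2r, the thromboxane receptor, was lower by 1.16 (SE 0.24, limma adjusted p = 0.000324) and 0.91 (SE 0.34, limma adjusted p = 0.0407) in WT and Notch3 KO T-ALL. Without the filter, the calls of Fcer1g (limma adjusted p = 0.0811 and 0.0873) and of Tbxa2r in Notch3 KO T-ALL (limma adjusted p = 0.0839) were lost. The same 3 calls were also lost when single libraries were left out (thymus 3, 4, 5 or 6 for Fcer1g in both groups, Notch3 KO 1 or 3 for Fcer1g in Notch3 KO T-ALL, and thymus 2, 4, 5 or 6 or Notch3 KO 3 for Tbxa2r). The 7 higher receptors were 4 in WT T-ALL without thymus 6, and 4 and 3 in Notch3 KO T-ALL without Notch3 KO 2 and 3.

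Of the 16 granule, cytoskeleton and signaling genes, 14 passed the filter, with 9 higher and 4 lower in WT T-ALL and 9 higher and 3 lower in Notch3 KO T-ALL than in thymus. Ptgs1 (cyclooxygenase 1) rose by 1.72 (SE 0.40, limma adjusted p = 0.00106) and Gng11, a G protein γ subunit, by 1.68 (SE 0.37, limma adjusted p = 0.000595) in WT T-ALL. In Notch3 KO T-ALL Gng11 rose by 3.49 (SE 0.53, limma adjusted p = 2.92e-05) and Thbs1 (thrombospondin 1 of α-granules) by 3.02 (SE 0.50, limma adjusted p = 7.06e-05). The list was not of one direction. F13a1, the factor XIII A chain that macrophages also make, was lower by 2.75 (SE 0.30, limma adjusted p = 1.42e-07) and 2.27 (SE 0.43, limma adjusted p = 0.000309) in WT and Notch3 KO T-ALL. Nbeal2, needed for α-granules, was lower by 1.48 (SE 0.23, limma adjusted p = 1.35e-05) and 1.49 (SE 0.33, limma adjusted p = 0.00116). No gene of the receptor or granule lists was called between the T-ALL groups with all libraries, where 0.617% of all genes tested were called, and 1 and 4 were without WT T-ALL 108. With the erythroid covariate, 1 of the 34 genes of the 3 lists past the filter was called in WT T-ALL against thymus (F13a1, limma adjusted p = 0.00554) and 0 in Notch3 KO T-ALL, where Gng11 still differed by 2.92 and F13a1 by -2.82 (limma adjusted p = 0.204 and 0.137).

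The 10 genes outside the set whose levels were most like the mean of the 9 members, among 11669 genes ranked by Pearson r over the 17 T-ALL libraries, were Npy (r = 0.965), Clec1b (0.964), Tubb1 (0.963), Alox12 (0.962), Mrvi1 (0.952), Myl9 (0.952), Thbs1 (0.952), G6b (0.944), Slc6a4 (0.943) and Gp1bb (0.940). Gp1bb encodes the subunit of the glycoprotein Ib-IX-V complex that was not among the 9 members. These r are a description over libraries that include WT T-ALL 108 and the 3 Notch3 KO libraries. Over the 14 WT libraries alone they ran from 0.883 to 0.965. Of the 10, 6 were in the lists of the lineage, and the other 4 were Npy, Mrvi1, Myl9 and Slc6a4. Npy, which encodes neuropeptide Y, had a mean log2 of 0.01 in thymus, 0.72 in WT T-ALL and 2.22 in Notch3 KO T-ALL. Slc6a4, the serotonin transporter by which platelets take up serotonin, had means of 0.02, 0.69 and 1.94.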

How the data were processed

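The deposited table held log2 values made by the authors, who, by the study's methods, made stranded mRNA libraries and used ArrayStudio, with its OSA aligner, to map reads (mm10 transcriptome) and to quantify genes. The values themselves read as log2(RPKM + 1), with RPKM scaled to a 75th percentile of 10 in every library. Versions and the scaling step are not given in the sources used here. All 23 columns matched a sample label, and 0 columns of other samples were present.

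Groups and library numbers were taken from the labels. Nothing in the labels ties libraries to a batch, litter or day, and p-values measure the spread between these libraries. Values were tested as deposited with limma 3.58.1 in R 4.3.3 (lmFit, eBayes with trend and robust, Benjamini-Hochberg, adjusted p under 0.05), on genes with 1 or more scaled RPKM in 3 or more of the libraries fitted. The 3 groups were fitted together for the comparisons with thymus, which share the thymus libraries. The T-ALL groups were compared alone. Single genes were also given exact two-sided permutation tests, and correlations 100000 resamples. The scripts were tested on simulated data.

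Named were all 9 members, the 2 called genes with the largest difference in each direction per list, and the 10 genes most like the members. Any transcription factor of the list could be named as well, and values are given for Tal1, Gata1, Fli1 and Runx1. Members and lists were chosen with earlier results of these data known. Of 65 marker genes, 64 were in the table, and the B-cell list lost 1. Gene positions are GENCODE release M21 on GRCm38, and no protein-coding gene overlaps a member. Reads were counted back from low values, so counts and floors cover counting error only. Alternatives were offsets of 0.1 and 0.01, no filter, a filter at 5, quantile normalization, rescaling without mitochondrial and hemoglobin genes, limma without trend and robust, other groups in the fit, an erythroid covariate, each library left out, and a replicate block. Leaving out WT T-ALL 108 together with WT T-ALL 110, a library rich in neutrophil genes, and counting calls without a filter were chosen after seeing the data.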

Additional observations from a re-analysis of the deposited data

Results flagged for a closer look

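Within thymus, 3 values passed a Dixon test of the gap over the range. Gp1ba was 0.077 (log2) in thymus 3 and 0 in the other 5. Gp5 was 0.348 in thymus 5, and the next highest library was 0.150. Treml1 was 0.163 in thymus 6 and 0 in the other 5. With 5 libraries at 0 any value above 0 passes this test, so for Gp1ba and Treml1 it does not show that a library stands apart. Thymus was the only group of a size for this test, with 9 genes looked at, and chance flags about 1 in 20 groups. All 3 values lie below those of the Notch3 KO libraries.

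The rise of Treml1 over thymus was larger in Notch3 KO T-ALL by 1.90 on the log2 scale (limma adjusted p = 0.018 for Notch3 KO against WT T-ALL), a call that was lost without the filter (limma adjusted p = 0.101), at offsets of 0.1 and 0.01 (0.0726 and 0.131), with the erythroid covariate (0.363) and without Notch3 KO 2 or 3 (0.331 and 0.229). It was higher in 3 of 3 Notch3 KO libraries than in 13 of the 14 WT libraries, and 2 of the 3 were above all 14.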

How the results depend on the processing

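All values for members are out of 9, or of the 8 past the filter. Of 863 values for single members under an alternative, 860 kept their sign, 49 lost a call and 31 gained one, 7 of these by the unadjusted exact test. The 3 that turned, all with the erythroid covariate, were Gp1ba and Gp6 in WT T-ALL minus thymus (-0.26 and -0.48) and Gp6 in Notch3 KO T-ALL minus thymus (-0.27). With that covariate 0 members were called in each comparison, with or without the filter, and the members kept from 30.5% (Gp6) to 87.3% (Treml1) of their difference between the T-ALL groups, from -27.4% (Gp6) to 76.3% (Itga2b) of that of Notch3 KO T-ALL from thymus, and from -134% (Gp6) to 58.0% (Itga2b) of that of WT T-ALL from thymus. It left 1064, 198 and 16 genes called of 6150, 4475 and 72. A filter at 5 tested Pf4, Ppbp, Gp9 and Itga2b alone, all 4 called in both comparisons with thymus and 0 between the T-ALL groups, where 6 genes in all were called. Between the T-ALL groups, 1 member was called as reported, and 0 with offsets of 0.1 and 0.01 (39 and 2 genes in all), 0 with no filter (38 genes), 2 with quantile normalization and 6 with all 3 groups in the fit (6 also without a filter, 254 genes in all). In the fit without a filter, in place of 0, the count was 1 by limma without trend and robust and 8 by the unadjusted exact permutation test. Without WT T-ALL 108 and 110 the counts were 6 and 1 (157 genes in all). Leaving out each library gave 6 to 8 members in WT T-ALL minus thymus (3 to 9 without a filter), 8 to 8 in Notch3 KO T-ALL minus thymus (8 to 9) and 0 to 7 between the T-ALL groups (0 to 1). All genes called between the T-ALL groups were 205, 3 and 12 without Notch3 KO 1, 2 and 3 and 158 without WT T-ALL 108, and 2859 in Notch3 KO T-ALL minus thymus without Notch3 KO 3. The cause of these moves was not tested, beyond the fewer genes or libraries fitted. The 22 differences of genes named from the lineage lists gave 746 values under an alternative, of which 44 lost a call and 5 turned. Those were Fcer1g in both comparisons with thymus (-0.12 and -0.18) and Tbxa2r and Runx1 in Notch3 KO T-ALL minus thymus (0.087 and 0.47), all with the erythroid covariate, and Runx1 in WT T-ALL minus thymus (-0.27) when rescaled.

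A replicate block on the numbers that groups share (3 pairs each) called 2 members in WT T-ALL minus thymus, where 3 passed the filter in the libraries fitted and Itga2b lost its call, and 8 of 8 in Notch3 KO T-ALL minus thymus. Without a filter it called 0 of 9 in each. Same-numbered libraries deviated with correlations from -0.235 to 0.151, so the numbers are not taken to pair the samples. The block left 1942 and 3630 genes called. The T-ALL groups share 1 number, so no block could be fitted there.

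The median r between pairs of members was 0.847 as reported and 0.608 without the 2 libraries farthest from the median. Rescaling without mitochondrial and hemoglobin genes shifted the median of all genes to -0.28 and -0.32 in the comparisons with thymus, and 28.5% and 25.7% of called genes were then higher, against 56.8% and 56.5%. With quantile normalization 48.5% and 45.7% were. Among the 7 members whose reads could be counted, Gp6, Gp1ba and Gp9 had at most 4 reads each over the 6 thymus libraries, and Treml1, not counted, was at 0 in 5 of them.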
